A study of Mus musculus with 47 samples.

Results

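The NF-kB subunits and feedback inhibitors described here are 10 genes: the subunit genes Nfkb1, Nfkb2, Rela, Relb and Rel, and the feedback genes Nfkbia, Nfkbie, Tnfaip3, Birc2 and Birc3. A gene was read from the probe sets that the platform annotation gives to its symbol alone, and where several qualified, the brightest on average stood for the gene. By this rule 9 of the 10 genes were read, of 12393 genes on the array, and Nfkb1 was not analysed here. Of the 9, 8 passed a filter that left out the 30% of genes with the lowest mean signal, as did 8675 genes in all. Rel, with a mean log2 signal of 3.82 against the filter's limit of 4.35, did not pass and is given by its values. The limit is a rank among genes and not a measured background.

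The arrays measured total RNA of JB6, a mouse cell line known as an epidermal model of tumour promotion, in 2 stably transduced lines. One line carried a retroviral AnxA2 shRNA (shRNA cells) and the other the vector only (vector cells), so both had been through packaged retrovirus and puromycin selection. Each line was left untreated and collected at 2 and 24 h, or given 10 or 100 cGy of X-rays and collected at 2, 6 and 24 h, which makes 16 groups of 3 arrays except for 2 in the vector group at 10 cGy and 24 h (47 arrays, 24 shRNA and 23 vector). There was no untreated group at 6 h. With 1 line for each construct, the shRNA and any other difference between the lines cannot be told apart, and the labels do not say whether a line was 1 clone or whether replicates were separate cultures, so p-values measure the spread between these arrays, which may be technical. Values are log2 signals from the RMA method (a level), which can be compared between arrays for 1 probe set but not between genes, and a difference of 1 on this scale is a doubling.

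Anxa2, the targeted gene, read 12.25 to 12.66 (median 12.52) in vector arrays and 10.58 to 11.23 (median 11.06) in shRNA arrays, with no overlap in any of the 8 conditions. The epidermal label was checked against marker genes: 4 of 11 epithelial markers passed the low-signal filter. Means in vector and shRNA cells were 4.56 and 4.69 for Krt5, 5.03 and 5.05 for Krt8, 4.68 and 4.76 for Itgb4, and 3.84 and 6.57 for Krt14. Cdh1, Epcam and Trp63, at 2.36, 3.51 and 3.33 in vector cells, were among the 7 that did not pass. Of the mesenchymal markers 9 of 10 passed, with Vim at 12.99 and Col1a2 at 12.24 in vector cells, while mean Cdh11 was 9.76 in vector against 3.32 in shRNA cells. Of 11 leukocyte markers 5 passed, among them Cd14 (7.55 and 7.99), Cd3e (5.47 and 5.58) and Lyz2 (4.72 and 5.29), and Ptprc, at 2.52 and 2.63, did not. Among endothelial markers 1 of 5 passed. The summed linear signal of the epithelial list, as log2, was 7.25 to 7.57 in vector and 7.77 to 8.25 in shRNA arrays, with no overlap. Krt14 was the only marker of this list whose lines did not overlap (3.22 to 4.39 and 5.92 to 7.10). Its mean in vector cells lay under the filter's limit. That of the mesenchymal list was 14.79 to 15.08 and 15.06 to 15.35, that of the leukocyte list 8.38 to 8.77 and 8.57 to 9.13, and that of the endothelial list 5.75 to 6.07 and 5.78 to 6.21. The part of these differences in the results below was not tested. A Gapdh 3' minus 5' difference above 0.3, a sign of RNA quality, marked 4 arrays: shRNA at 10 cGy and 6 h replicate 1 (1.06), vector untreated at 2 h replicate 3 (0.594), shRNA at 100 cGy and 2 h replicate 2 (0.492) and shRNA untreated at 2 h replicate 1 (0.309). The 3 vector arrays at 2 h numbered replicate 3 also stood apart, for Nfkbia and Birc2 and over all tested genes. Over those genes their deviations from the group means correlated with each other (Pearson r = 0.72, 0.63 and 0.35). With replicates 1 and 2 of the other doses r was -0.62 to -0.21. What these 3 arrays shared is not in the labels. Results of members that rest on them are given with and without them. Deviations also correlated between some shRNA arrays. At 2 h, 100 cGy replicate 2 had r = 0.61 with untreated replicate 1, 0.48 with 10 cGy replicate 2 and -0.56 with untreated replicate 3. At 24 h, 100 with 10 cGy had r = 0.56 for replicate 3 and 0.51 for replicate 2. These shRNA arrays were not left out as sets of their own.

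NF-kB is a family of transcription factors that act as pairs of subunits. In resting cells inhibitor proteins of the IkB group hold these pairs in the cytoplasm; cytokines, microbial products and DNA damage activate kinases that mark the inhibitors for destruction, and the freed pairs enter the nucleus. Among the genes they switch on are their own inhibitors and several subunits, which makes the pathway self-limiting, and in skin and fibroblast cultures it is known for driving inflammatory and survival genes.

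Because the feedback genes are known as targets of NF-kB, the promoter windows of the members were searched for the kB consensus, the DNA pattern that NF-kB pairs bind, on both strands. The windows are RefSeq's on GRCm38.p6 and run from 250 bases before to 50 after a gene's start; 8 of the 10 members matched the table, and Nfkb1 and Relb did not. A match was found for 5 of these 8 genes (Nfkb2, Rel, Nfkbia, Nfkbie and Tnfaip3) and for 5.14% of all 27025 genes in the table (4.51% of 32851 windows). A looser form of the consensus was found for the same number of members, 5, and for 12.6% of genes. The last 130 bases before the start of these 5 genes are shown 5′ to 3′ on the gene's strand, with kB matches in capitals, to show where the matches lie.
Nfkb2, chr19:46304607-46304736 (+): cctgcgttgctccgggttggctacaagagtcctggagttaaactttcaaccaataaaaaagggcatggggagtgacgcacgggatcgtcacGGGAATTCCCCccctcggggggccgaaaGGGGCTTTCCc
Rel, chr11:23770970-23771099 (-): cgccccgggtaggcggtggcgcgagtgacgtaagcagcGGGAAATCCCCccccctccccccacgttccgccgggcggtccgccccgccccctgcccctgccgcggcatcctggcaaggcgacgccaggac
Nfkbia, chr12:55492648-55492777 (-): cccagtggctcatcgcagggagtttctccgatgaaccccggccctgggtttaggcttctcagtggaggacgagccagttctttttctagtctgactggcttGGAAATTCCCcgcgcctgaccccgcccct
Nfkbie, chr17:45555570-45555699 (+): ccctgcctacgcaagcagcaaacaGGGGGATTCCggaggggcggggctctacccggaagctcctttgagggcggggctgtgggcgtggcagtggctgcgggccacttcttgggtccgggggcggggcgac
Tnfaip3, chr10:19015411-19015540 (-): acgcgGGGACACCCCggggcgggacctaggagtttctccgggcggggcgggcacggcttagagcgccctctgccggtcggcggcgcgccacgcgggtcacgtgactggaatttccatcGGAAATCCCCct
Nfkb2 had matches starting 39, 38 and 11 bases before the start, of which the first 2 overlap, in the first of its windows in the table, which lies inside the gene's annotated span. Rel had 2 overlapping matches at 92 and 91 bases, Nfkbia 1 at 29 bases, Nfkbie 1 at 106 bases, and Tnfaip3 matches at 125 and 12 bases. Rela, Birc2 and Birc3 had no match in these windows. A match is a description of letters, not a site or a cause.

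Across the 8 conditions that both lines shared, 4 of the 5 feedback genes (Birc3, Nfkbie, Nfkbia and Birc2) were lower in shRNA cells, as were 2 of the 3 tested subunits (Relb and Nfkb2), and 1 subunit, Rela, was higher. Birc3 and Nfkbie differed most, being 2.77-fold and 2.05-fold lower, and Rela was 1.45-fold higher. Tnfaip3 did not pass the test. In all 7 of 8 members passed (limma, Benjamini-Hochberg adjusted p under 0.05), beside 68.9% of all tested genes, so the count itself is near the background. In bulk RNA, fewer cells of a type and less RNA per cell cannot be told apart.

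**Figure D1:**
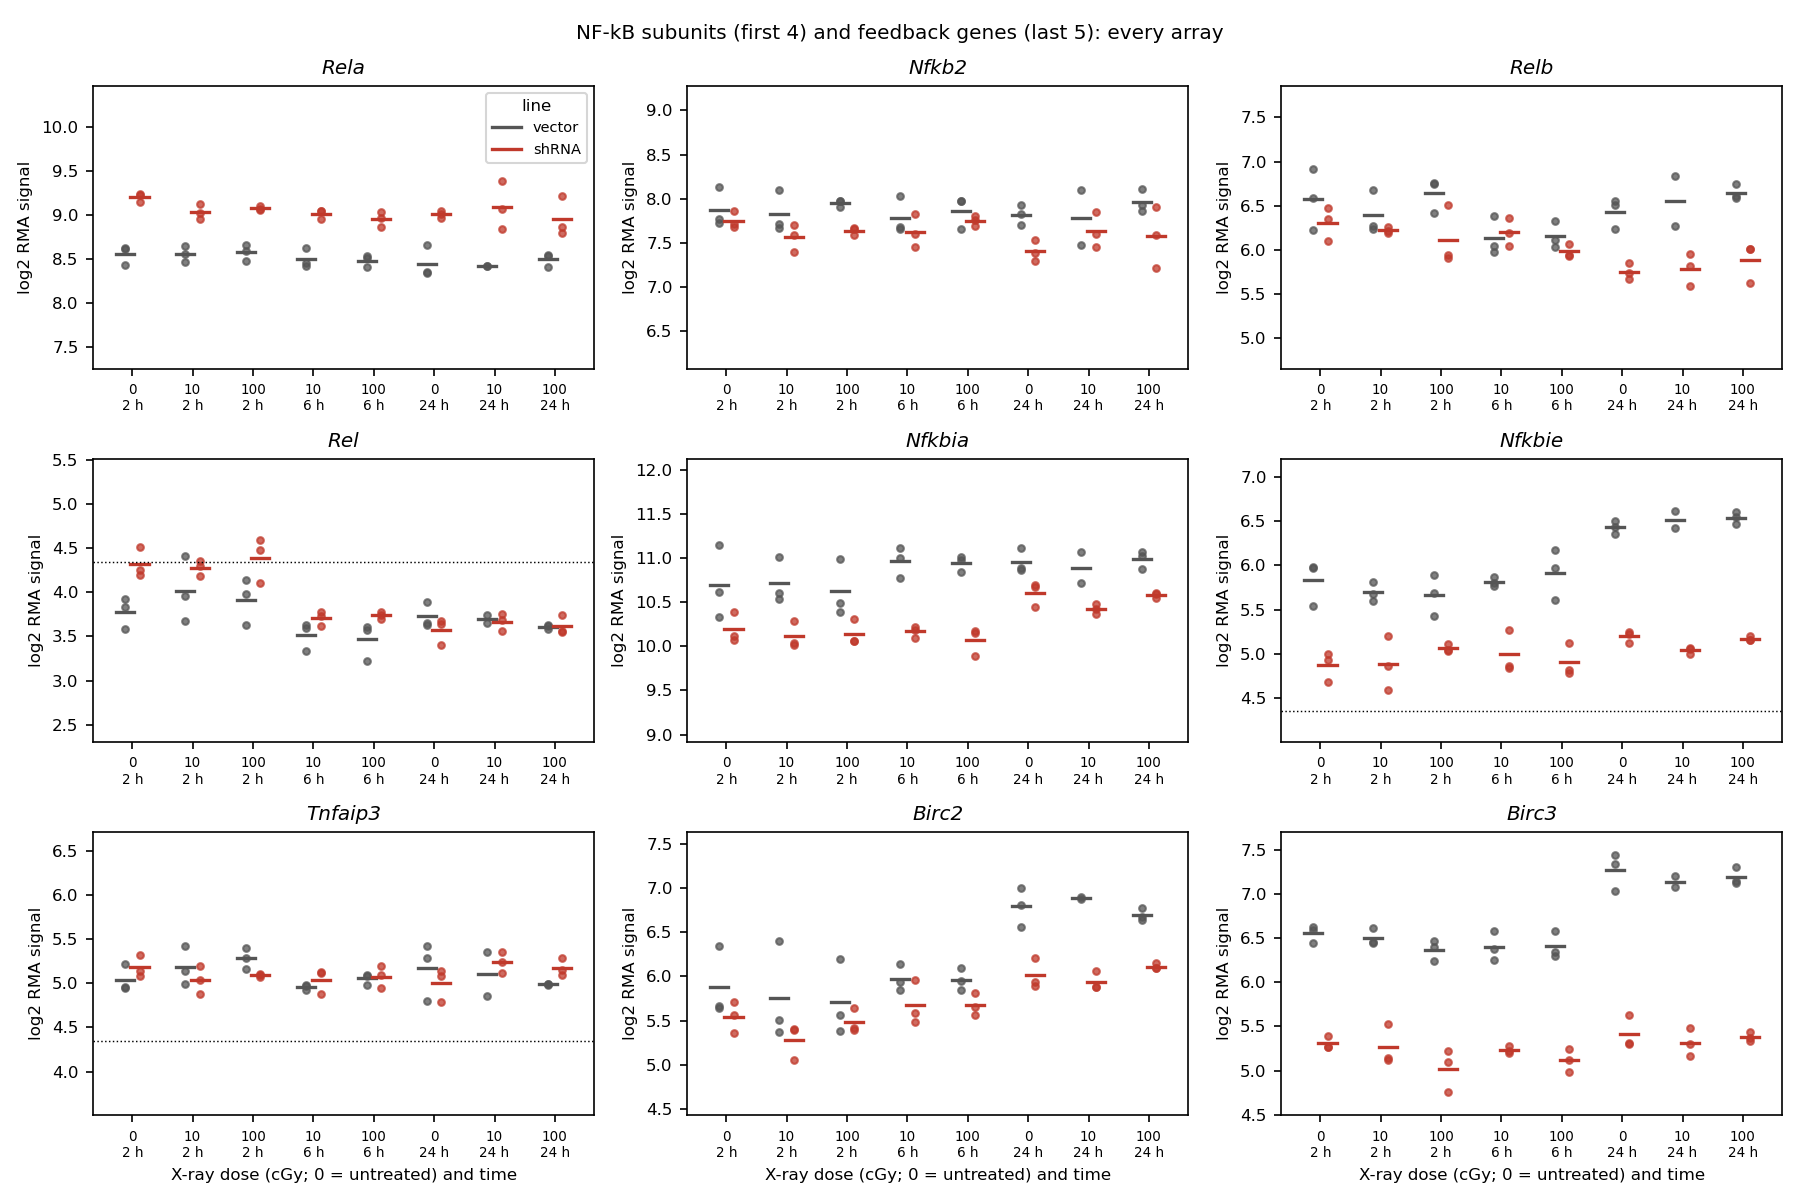
Log2 RMA signal of the 9 members on every array (points) with group means (bars), by X-ray dose and time on the horizontal axis, vector in grey and shRNA in red; each panel has its own range and a dotted line marks the low-signal limit of 4.35 where it falls in range. Rela lies higher in every shRNA array, Birc3 and Nfkbie lower, Tnfaip3 overlaps in 6 of 8 conditions, and Rel lies around or below the limit.

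Rela (chromosome 19, 5637442-5648134, GRCm38.p6) encodes p65, the subunit that carries the main activation domain of the classical NF-kB pair. Its probe set was 1419536_a_at. Rela in vector cells at 2 h gave log2 signals of 8.43, 8.63 and 8.61 untreated, 8.65, 8.47 and 8.56 after 10 cGy, and 8.47, 8.66 and 8.60 after 100 cGy. Rela in vector cells at 6 h read 8.46, 8.42 and 8.63 after 10 cGy and 8.51, 8.53 and 8.41 after 100 cGy. Rela in vector cells at 24 h read 8.34, 8.66 and 8.35 untreated, 8.42 and 8.42 after 10 cGy, and 8.42, 8.54 and 8.55 after 100 cGy. These 23 arrays spanned 8.34 to 8.66 with no group apart from the others. Rela in shRNA cells at 2 h read 9.14, 9.24 and 9.23 untreated, 8.96, 9.13 and 9.03 after 10 cGy, and 9.07, 9.10 and 9.06 after 100 cGy. Rela in shRNA cells at 6 h read 9.05, 9.05 and 8.95 after 10 cGy and 8.97, 8.87 and 9.04 after 100 cGy. Rela in shRNA cells at 24 h read 8.97, 9.02 and 9.04 untreated, 9.06, 8.84 and 9.38 after 10 cGy, and 8.87, 8.79 and 9.22 after 100 cGy. The lowest shRNA array, 8.79, lay above the highest vector array, so the lines did not overlap in any condition; 7.53% of tested genes have arrays of the 2 lines that never overlap. Between the lines Rela differed (shRNA minus vector, log2) by 0.54 ± 0.04 (SE, adjusted p = 6.68e-16) over the 8 conditions and passed the test in each of them, between 0.46 and 0.67. Ordered by level, the 8 shRNA groups came before the 8 vector groups; the step between them, from 8.96 to 8.58, was larger than the pooled SD of replicates, 0.12, and no other neighbouring groups differed by that much.

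Relb (chromosome 7, 19606217-19629438) encodes the activating subunit of the alternative NF-kB pair, and Nfkb2 (chromosome 19, 46300994-46312400) encodes p100, an inhibitor in itself until it is cut to p52, the partner of RelB. Their probe sets were 1417856_at and 1425902_a_at. Relb in vector cells at 2 h gave log2 signals of 6.59, 6.92 and 6.23 untreated, 6.68, 6.28 and 6.24 after 10 cGy, and 6.76, 6.75 and 6.41 after 100 cGy. Relb in vector cells at 6 h read 6.38, 5.98 and 6.05 after 10 cGy and 6.11, 6.04 and 6.33 after 100 cGy. Relb in vector cells at 24 h read 6.55, 6.51 and 6.24 untreated, 6.84 and 6.27 after 10 cGy, and 6.59, 6.74 and 6.61 after 100 cGy. By group mean the vector cells were lowest at 6 h. Relb in shRNA cells at 2 h read 6.10, 6.48 and 6.34 untreated, 6.20, 6.21 and 6.26 after 10 cGy, and 6.50, 5.91 and 5.94 after 100 cGy. Relb in shRNA cells at 6 h read 6.36, 6.19 and 6.04 after 10 cGy and 5.95, 6.07 and 5.94 after 100 cGy. Relb in shRNA cells at 24 h read 5.85, 5.74 and 5.67 untreated, 5.82, 5.60 and 5.95 after 10 cGy, and 6.01, 5.62 and 6.02 after 100 cGy. By group mean the shRNA cells were lowest at 24 h, where all arrays lay below all vector arrays at each dose, while at 2 and 6 h the lines overlapped at each dose. Over the 8 conditions Relb differed between the lines by -0.41 ± 0.06 (SE, adjusted p = 8.60e-08). By condition it passed at 100 cGy and 2 h (-0.52) and at 24 h untreated, after 10 cGy and after 100 cGy (-0.68, -0.76 and -0.76). The call at 100 cGy and 2 h was lost without shRNA replicate 2 (adjusted p = 0.0742) or 3 (0.0521) and with only the compared groups (0.0663), and that at 10 cGy and 24 h without vector replicate 1 (-0.48, adjusted p = 0.106); untreated at 2 h it was gained without vector replicate 3 (-0.44, adjusted p = 0.0463). No neighbouring groups in the order of Relb levels differed by more than the pooled SD, 0.217.

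Nfkb2 read 7.47 to 8.14 (median 7.90) over the 23 vector arrays and 7.22 to 7.91 (median 7.63) over the 24 shRNA arrays. The ranges overlapped widely, and all vector arrays lay above all shRNA arrays in 2 conditions: untreated at 24 h, with 7.83, 7.93 and 7.70 in vector and 7.39, 7.54 and 7.30 in shRNA cells, and 100 cGy at 2 h. Over the 8 conditions Nfkb2 differed between the lines by -0.24 ± 0.05 (SE, adjusted p = 0.000157), and by condition it passed untreated at 24 h (-0.41 ± 0.15 SE, adjusted p = 0.0274) and at 100 cGy and 24 h (-0.39 ± 0.15 SE, adjusted p = 0.0366). Untreated at 24 h the call was lost without shRNA replicate 1 or 3 or vector replicate 1 or 2 (adjusted p = 0.0652, 0.106, 0.0639 and 0.0965), and at 100 cGy without shRNA replicate 1 or 2 or vector replicate 1 or 3 (0.0688, 0.324, 0.061 and 0.15), with centred arrays (-0.34, adjusted p = 0.0585) and with a fit of the compared groups alone (0.0586). The gene's other probe set, 1429128_x_at, a kind that by the manufacturer's naming can read other transcripts, gave 0.03 over the 8 conditions (adjusted p = 0.612). It passed neither of these conditions (-0.20, adjusted p = 0.212, and -0.17, adjusted p = 0.317) and was higher in shRNA cells at 100 cGy and 6 h (0.36, adjusted p = 0.0214). The direction for Nfkb2 therefore rests on the probe set. No neighbouring groups in its order of levels differed by more than the pooled SD, 0.203.

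Rel (chromosome 11, 23736847-23770969) encodes c-Rel, a subunit best known in lymphocytes. Its probe set was 1420710_at. Rel read 3.22 to 4.41 (median 3.63) over vector arrays and 3.41 to 4.60 (median 3.75) over shRNA arrays. The 9 shRNA arrays at 2 h, 4.20, 4.25 and 4.51 untreated, 4.36, 4.18 and 4.30 after 10 cGy, and 4.48, 4.10 and 4.60 after 100 cGy, were the only shRNA arrays above 4, while vector arrays at 2 h reached 4.41; the 3 shRNA groups at 2 h were the highest of the 16, apart from the next by more than the pooled SD of 0.175. When all genes were tested with no filter, Rel was lower at 24 than at 2 h in untreated shRNA cells by a log2 difference of -0.74 (adjusted p = 0.000212) and at 6 than at 2 h in irradiated cells of both lines (-0.47 in vector and -0.61 in shRNA cells). In that limma fit Rel was higher in shRNA cells over the 8 conditions (0.20, adjusted p = 0.00102). By condition this passed only untreated at 2 h (0.54, adjusted p = 0.00347) and at 100 cGy and 2 h (0.48, adjusted p = 0.00837). The change with time in untreated cells differed between the lines by -0.69 (adjusted p = 0.0424). All of these levels are close to the filter's limit or under it.

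Nfkbia (chromosome 12, 55489409-55492647) encodes IkBa, the inhibitor that NF-kB restores first after a stimulus. It was read from 1420088_at. Nfkbia in vector cells at 2 h gave log2 signals of 10.62, 10.34 and 11.14 untreated, 10.54, 10.60 and 11.01 after 10 cGy, and 10.39, 10.49 and 10.99 after 100 cGy. Nfkbia in vector cells at 6 h read 10.77, 11.00 and 11.11 after 10 cGy and 10.84, 11.01 and 10.98 after 100 cGy. Nfkbia in vector cells at 24 h read 10.89, 11.11 and 10.86 untreated, 10.71 and 11.06 after 10 cGy, and 10.87, 11.06 and 11.02 after 100 cGy. Replicate 3 of each vector group at 2 h, listed last, read 11.14, 11.01 or 10.99, near the level at 6 and 24 h, and the other arrays at 2 h lay between 10.34 and 10.62. Nfkbia in shRNA cells at 2 h read 10.39, 10.07 and 10.12 untreated, 10.02, 10.29 and 10.03 after 10 cGy, and 10.06, 10.30 and 10.06 after 100 cGy. Nfkbia in shRNA cells at 6 h read 10.18, 10.22 and 10.10 after 10 cGy and 10.17, 9.89 and 10.15 after 100 cGy. Nfkbia in shRNA cells at 24 h read 10.67, 10.45 and 10.69 untreated, 10.48, 10.43 and 10.37 after 10 cGy, and 10.54, 10.60 and 10.61 after 100 cGy. By group mean the shRNA cells were highest at 24 h, and all shRNA arrays lay below all vector arrays in 7 of the 8 conditions, untreated at 2 h being the exception. The difference between the lines was -0.56 ± 0.05 (SE, adjusted p = 8.67e-12) over the 8 conditions, and the other 3 probe sets of the gene gave -0.51 (1449731_s_at), -0.63 (1448306_at) and -0.44 (1420089_at), each past the test. By condition it was largest at 6 h (-0.79 after 10 cGy and -0.87 after 100 cGy) and passed in all conditions but untreated at 24 h (-0.35 ± 0.15 SE, adjusted p = 0.0587).

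Several Nfkbia calls by condition depended on the arrays, the fit or the probe set, and those at 2 h untreated and after 100 cGy on the vector arrays that stood apart. Untreated at 2 h the difference was -0.50 with all arrays and -0.28 without those 3 arrays (adjusted p = 0.0682) or without untreated replicate 3 alone (adjusted p = 0.151). The call was also lost without the raised-Gapdh arrays (0.0639) and with a fit of the compared groups alone (0.108). At 100 cGy and 2 h it was -0.48 and -0.29 without them (adjusted p = 0.0501) or without vector replicate 3 of that group alone (adjusted p = 0.142), and with only the compared groups the adjusted p was 0.0712. At 10 cGy and 24 h the call was lost without shRNA replicate 2 or 3 or vector replicate 3 (adjusted p = 0.0554, 0.0754 and 0.366), and at 100 cGy and 24 h without shRNA replicate 1, 2 or 3 or vector replicate 2 or 3 (0.0803, 0.0587, 0.0545, 0.0945 and 0.0796) and with centred arrays (0.0635). The other probe sets, in the order given, lost the call untreated at 2 h (adjusted p = 0.0998, 0.18 and 0.0771) and at 100 cGy and 24 h (0.055, 0.105 and 0.469). Probe sets 1449731_s_at and 1420089_at lost it at 10 cGy and 24 h (0.248 and 0.408) and at 100 cGy and 2 h (0.0837 and 0.884), where the latter read -0.07. The probe set 1420089_at also lost it at 100 cGy and 6 h (-0.46, adjusted p = 0.261). Untreated at 24 h the call was gained with 1448306_at (-0.56, adjusted p = 0.0176) and with only the compared groups (0.0268). Over all alternatives the difference in that condition ran from -0.56 to 0.19, so its sign was not kept. With 1 array left out it ran from -0.40 to -0.27. The 3 shRNA groups at 24 h stood above the other 5 shRNA groups by more than the pooled SD of 0.192.

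Nfkbie (chromosome 17, 45555700-45563169) encodes IkBe, a slower inhibitor that NF-kB also switches on. It was read from 1431843_a_at. Nfkbie in vector cells at 2 h gave log2 signals of 5.97, 5.54 and 5.98 untreated, 5.68, 5.60 and 5.82 after 10 cGy, and 5.43, 5.68 and 5.89 after 100 cGy. Nfkbie in vector cells at 6 h read 5.77, 5.80 and 5.86 after 10 cGy and 5.61, 6.17 and 5.97 after 100 cGy. Nfkbie in vector cells at 24 h read 6.44, 6.51 and 6.36 untreated, 6.61 and 6.43 after 10 cGy, and 6.55, 6.61 and 6.47 after 100 cGy. All 8 vector arrays at 24 h lay above all vector arrays at 2 and 6 h. How many of all tested genes separate in this way was not counted. In narrower comparisons of vector cells, no overlap in either direction was common. It held for 34.2% of tested genes untreated at 24 against 2 h and for 30.4% irradiated at 24 against 6 h. Nfkbie in shRNA cells at 2 h read 4.93, 5.00 and 4.68 untreated, 4.86, 5.20 and 4.60 after 10 cGy, and 5.11, 5.05 and 5.03 after 100 cGy. Nfkbie in shRNA cells at 6 h read 5.27, 4.86 and 4.84 after 10 cGy and 5.13, 4.78 and 4.82 after 100 cGy. Nfkbie in shRNA cells at 24 h read 5.12, 5.25 and 5.22 untreated, 5.07, 5.00 and 5.05 after 10 cGy, and 5.15, 5.16 and 5.21 after 100 cGy. The highest shRNA array, 5.27, lay below the lowest vector array, 5.43, so the lines never overlapped. Nfkbie differed between the lines by -1.04 ± 0.05 (SE, adjusted p = 8.03e-21) over the 8 conditions and passed in each of them, from -0.61 at 100 cGy and 2 h to -1.48 at 10 cGy and 24 h. In the order of levels the 3 vector groups at 24 h came first, then the other 5 vector groups, then the 8 shRNA groups; the steps between these sets, from 6.43 to 5.92 and from 5.67 to 5.20, exceeded the pooled SD of 0.17, and no other neighbours differed by that much.

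Tnfaip3 (chromosome 10, 19000910-19015410) encodes A20, an enzyme that edits ubiquitin chains and shuts signalling upstream of the kinases. It was read from 1450829_at. Tnfaip3 read 4.80 to 5.43 (median 5.00) over vector arrays and 4.79 to 5.35 (median 5.11) over shRNA arrays. The lines overlapped in 6 of 8 conditions, with shRNA arrays lower at 100 cGy and 2 h and higher at 100 cGy and 24 h. Between the lines Tnfaip3 had a difference of 0.01 ± 0.05 (SE, adjusted p = 0.876), with a 95% interval of -0.09 to 0.10, and no condition passed. Untreated at 24 h it became -0.35 (adjusted p = 0.0278) without vector replicate 2, which read 4.80 beside 5.42 and 5.29. No neighbouring groups differed by more than the pooled SD, 0.17. Tnfaip3 averaged 5.10 in vector and 5.11 in shRNA cells, a low signal near those of Nfkbie (5.02) and Birc3 (5.26) in shRNA cells. Whether a signal that low can hide a difference between lines, times or doses was not tested.

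Birc2 and Birc3 (chromosome 9, 7818226-7837131 and 7847468-7873205) are neighbouring paralogs that encode cIAP1 and cIAP2, ubiquitin ligases that keep the alternative pathway off and carry the signal of the TNF receptor; Birc3 is the one best known as an NF-kB target. They were read from 1418854_at and 1421392_a_at. Whether these probe sets read each other's transcripts was not tested. Birc3 in vector cells at 2 h gave log2 signals of 6.63, 6.45 and 6.59 untreated, 6.46, 6.45 and 6.62 after 10 cGy, and 6.25, 6.40 and 6.46 after 100 cGy. Birc3 in vector cells at 6 h read 6.58, 6.38 and 6.25 after 10 cGy and 6.34, 6.30 and 6.58 after 100 cGy. Birc3 in vector cells at 24 h read 7.44, 7.04 and 7.34 untreated, 7.08 and 7.20 after 10 cGy, and 7.15, 7.31 and 7.13 after 100 cGy. All vector arrays at 24 h were above 7 and all earlier ones below it. The share of all tested genes with such a split was not counted. Narrower comparisons of vector cells had no overlap for 34.2% (untreated, 24 against 2 h) and 30.4% (irradiated, 24 against 6 h) of genes. Birc3 in shRNA cells at 2 h read 5.39, 5.26 and 5.27 untreated, 5.15, 5.53 and 5.12 after 10 cGy, and 4.76, 5.09 and 5.22 after 100 cGy. Birc3 in shRNA cells at 6 h read 5.23, 5.28 and 5.20 after 10 cGy and 5.13, 4.99 and 5.25 after 100 cGy. Birc3 in shRNA cells at 24 h read 5.30, 5.31 and 5.63 untreated, 5.30, 5.17 and 5.48 after 10 cGy, and 5.34, 5.44 and 5.38 after 100 cGy. The highest shRNA array, 5.63, lay below the lowest vector array, 6.25. Birc3 differed between the lines by -1.47 ± 0.04 (SE, adjusted p = 1.41e-27) over the 8 conditions and passed in each, from -1.17 at 10 cGy and 6 h to -1.86 untreated at 24 h. It was the 93rd lowest of the 8675 tested genes and that of Nfkbie the 199th; 2.46% of tested genes were called lower by at least 1 on the log2 scale. The step from the vector groups at 24 h to the other vector groups (7.14 to 6.55) and from these to the shRNA groups (6.37 to 5.41) exceeded the pooled SD of 0.146, and no other neighbours did. A further Birc3 probe set, 1425223_at, which averaged 3.39 and so fell below the filter's limit, gave -0.07 (adjusted p = 0.0739). With it 7 of the 8 calls by condition and the time calls of Birc3 described below were lost.

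Birc2 in vector cells at 2 h gave log2 signals of 5.64, 5.66 and 6.35 untreated, 5.37, 5.51 and 6.41 after 10 cGy, and 5.56, 5.38 and 6.19 after 100 cGy. Birc2 in vector cells at 6 h read 5.94, 6.14 and 5.84 after 10 cGy and 6.10, 5.95 and 5.84 after 100 cGy. Birc2 in vector cells at 24 h read 7.01, 6.81 and 6.56 untreated, 6.90 and 6.87 after 10 cGy, and 6.77, 6.67 and 6.64 after 100 cGy. Replicate 3 of each vector group at 2 h again stood above the others, and all vector arrays at 24 h were above all earlier ones. As for Nfkbie and Birc3, the share of all genes with such a split was not counted. In the narrower comparisons given there, 34.2% and 30.4% of genes had no overlap. Birc2 in shRNA cells at 2 h read 5.71, 5.36 and 5.56 untreated, 5.41, 5.06 and 5.39 after 10 cGy, and 5.65, 5.40 and 5.41 after 100 cGy. Birc2 in shRNA cells at 6 h read 5.96, 5.48 and 5.58 after 10 cGy and 5.81, 5.57 and 5.65 after 100 cGy. Birc2 in shRNA cells at 24 h read 6.21, 5.89 and 5.94 untreated, 6.06, 5.88 and 5.88 after 10 cGy, and 6.15, 6.09 and 6.09 after 100 cGy. All shRNA arrays lay below all vector arrays in 4 conditions, the 3 at 24 h and 100 cGy at 6 h. The difference between the lines was -0.49 ± 0.07 (SE, adjusted p = 6.72e-08) over the 8 conditions and by condition passed at 24 h: -0.78 untreated, -0.95 after 10 cGy and -0.58 after 100 cGy, the last of which was lost without vector replicate 1 (-0.54, adjusted p = 0.0531). At 10 cGy and 2 h it was -0.48 ± 0.19 (SE, adjusted p = 0.0542); the call was gained without vector replicate 1 (-0.67, adjusted p = 0.0111) or 2 (-0.60, adjusted p = 0.0289). The 3 vector groups at 24 h stood above the rest by more than the pooled SD of 0.246, and no other neighbours differed by that much.

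**Figure D2:**
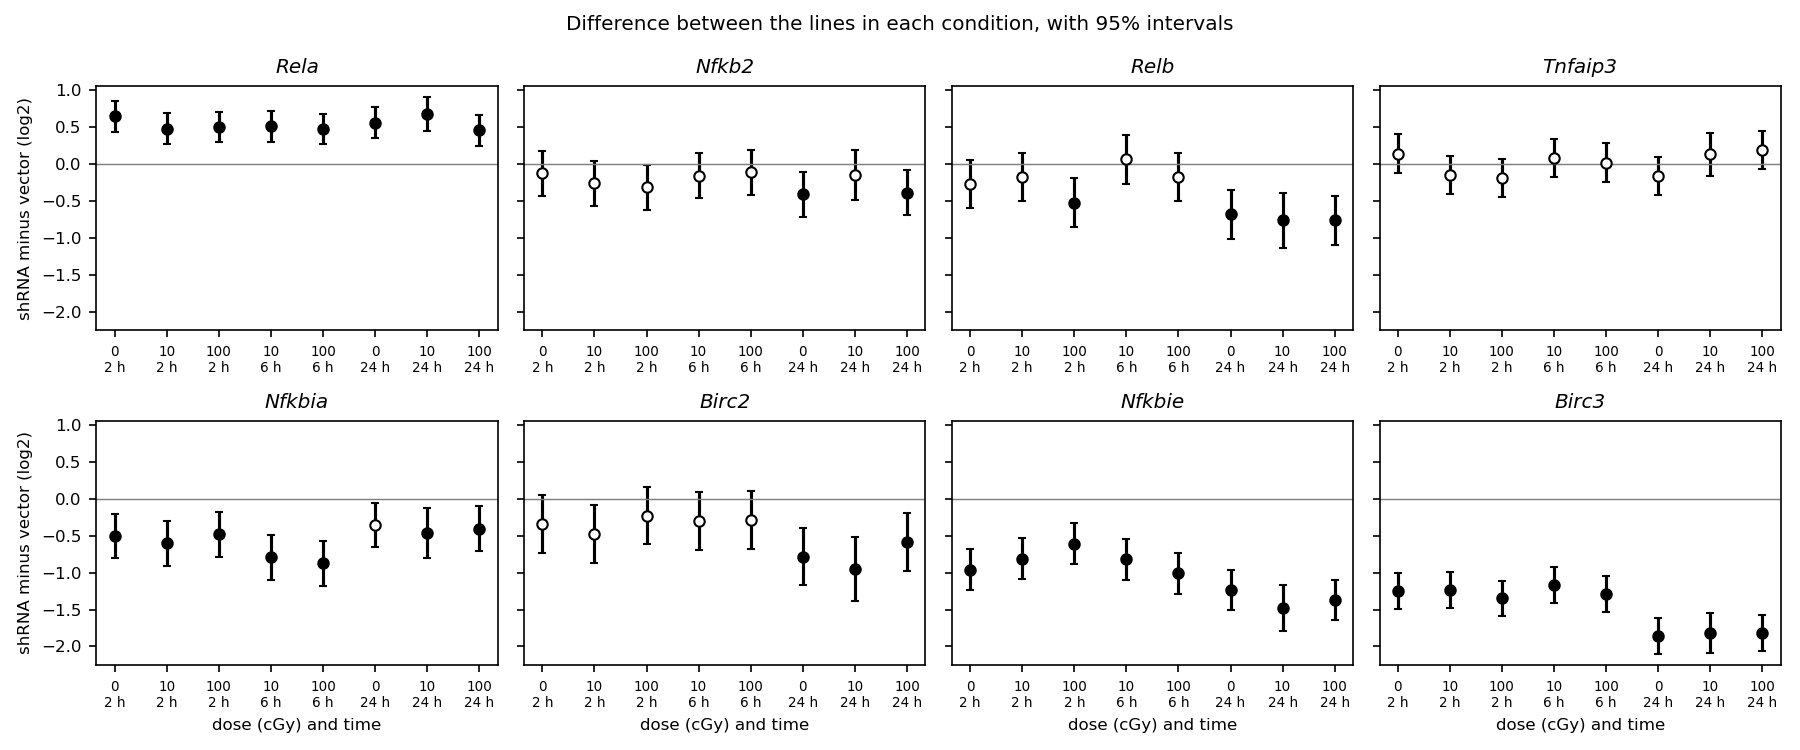
Difference between the lines (shRNA minus vector, log2) for the 8 tested members in each of the 8 conditions, with 95% intervals; dose and time are on the horizontal axis and filled points passed the test at an adjusted p under 0.05. Rela is above 0 in every condition (0.46 to 0.67), Birc3 and Nfkbie are below 0 in every condition, and Relb and Birc2 are farthest below 0 at 24 h.

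Condition by condition, 40 of 64 member and condition pairs passed, beside 33.8% of genes untreated at 2 h, 39.3% untreated at 24 h, 33.4%, 35.7% and 33.7% after 10 cGy at 2, 6 and 24 h, and 40.0%, 37.2% and 38.3% after 100 cGy at those times. Rela, Nfkbie and Birc3 supplied 24 of the 40 pairs. Arrays of the lines that do not overlap are common among all genes in a single condition, with 42.0% untreated at 2 h, 48.9% untreated at 24 h, 42.0%, 44.7% and 55.6% after 10 cGy at 2, 6 and 24 h, and 43.0%, 54.1% and 55.4% after 100 cGy. A gene whose lines separate in 1 or a few conditions is therefore not set apart by it. Over the 5 feedback genes the median difference between the lines was -0.56, over the 3 tested subunits -0.24, and over all tested genes 0.02. As a summary of the set, the mean of the 5 feedback genes minus the mean of the 3 tested subunits was taken on each array. Vector groups had means of -0.99 (100 cGy, 2 h) to -0.24 (untreated, 24 h) and shRNA groups of -1.54 to -0.94. The shRNA groups were lower by -0.67 on average over the 8 conditions (no test is given, since the genes were chosen with results known). The zero of this scale has no meaning, because levels of different probe sets cannot be compared; its difference between groups does.

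**Figure D3:**
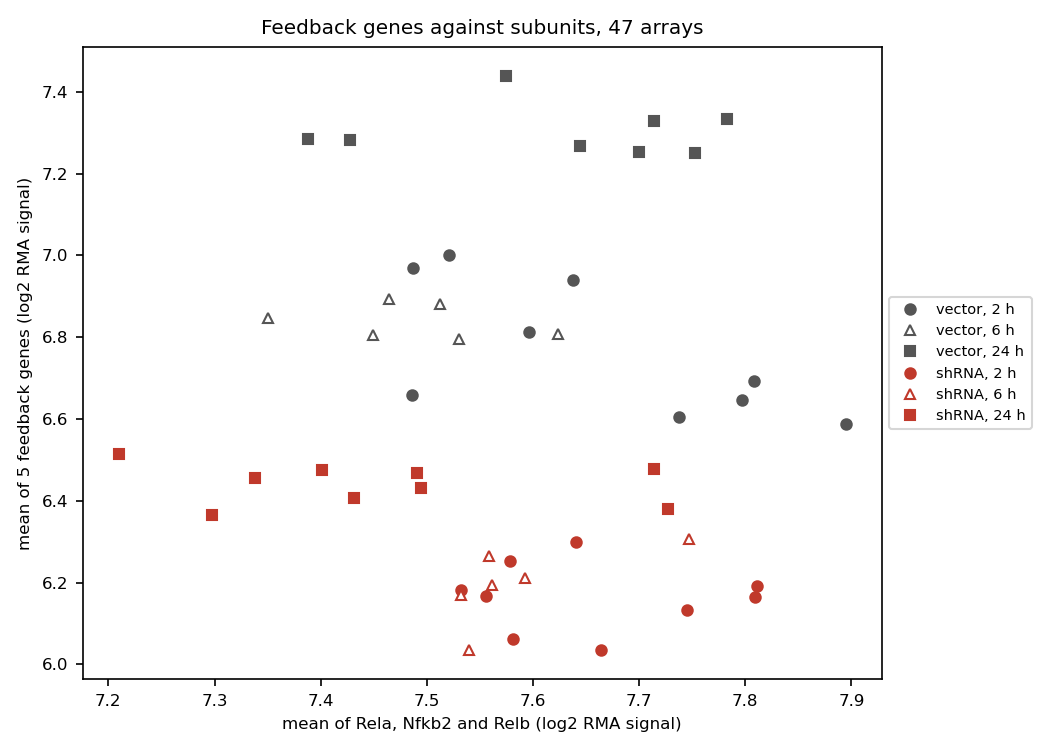
Mean log2 signal of the 5 feedback genes (vertical) against that of Rela, Nfkb2 and Relb (horizontal) on each of the 47 arrays; colour gives the line and symbol the time. The lines overlap in their subunit means, and every shRNA array lies below every vector array on the feedback axis.

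In untreated vector cells, Birc2, Nfkbie and Birc3 were higher at 24 than at 2 h, by 1.88-fold, 1.52-fold and 1.64-fold, and in untreated shRNA cells Nfkbia was higher and Relb lower. The log2 differences in vector cells were 0.91 ± 0.19 (SE, adjusted p = 0.00044) for Birc2, 0.60 ± 0.14 (SE, adjusted p = 0.000886) for Nfkbie and 0.72 ± 0.12 (SE, adjusted p = 1.68e-05) for Birc3. All 3 genes had every array at 24 h above every array at 2 h, where 34.2% of all tested genes had no overlap in either direction. The 3 members called, of 8, stand beside 25.9% of tested genes (13.0% higher and 12.9% lower). In shRNA cells the differences were 0.41 ± 0.15 (SE, adjusted p = 0.0497) for Nfkbia and -0.55 ± 0.16 (SE, adjusted p = 0.0133) for Relb, 2 of 8 members beside 19.2% of genes (10.1% higher and 9.14% lower). In the same cells Birc3 had 0.10 ± 0.12 (SE, adjusted p = 0.612), Nfkbie 0.33 ± 0.14 (SE, adjusted p = 0.0848) and Birc2 0.47 ± 0.19 (SE, adjusted p = 0.0835). Birc2 was called there with only the compared groups (adjusted p = 0.0231) and without the raised-Gapdh arrays (0.55, adjusted p = 0.041). Nfkb2 had -0.34 ± 0.15 (SE, adjusted p = 0.11) and was called lower with only the compared groups (0.0389), with the mean of its probe sets (-0.43, adjusted p = 0.00533) and with 1429128_x_at (-0.53, adjusted p = 0.0019). These cells were not irradiated, so time in culture is the only factor the labels give. Nfkbia in vector cells had 0.26 ± 0.15 (SE, adjusted p = 0.217), which became 0.48 and was called without the 3 arrays that stood apart (adjusted p = 0.00238) or without untreated replicate 3 at 2 h alone (0.0141). Over all alternatives this Nfkbia difference ran from -0.45 to 0.48, so its sign was not kept. With 1 array left out it ran from 0.08 to 0.48. The shRNA call for Nfkbia was lost without replicate 2 or 3 at 2 h or 1 or 3 at 24 h (adjusted p = 0.183, 0.146, 0.136 and 0.159) and with no filter on low values (0.0665). It was also lost with the mean of all probe sets (0.30, adjusted p = 0.182) and with each other probe set, which gave 0.27 (1449731_s_at), 0.11 (1448306_at) and 0.43 (1420089_at) with adjusted p of 0.404, 0.769 and 0.369. The call was lost for Relb without replicate 2 at 2 h (0.0824) or 3 at 24 h (0.0585).

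Tested directly, the change of Birc3 with time in untreated cells was smaller in shRNA than in vector cells: the difference between the lines' changes was -0.61 ± 0.17 (SE, adjusted p = 0.023), with vector arrays moving from 6.55 to 7.27 on average and shRNA arrays from 5.31 to 5.41. It was the only one of 8 members called, beside 5.69% of genes, and the call was lost without shRNA replicate 1 at 2 h, shRNA replicate 1 or 2 at 24 h or vector replicate 1 or 3 at 24 h (adjusted p = 0.0529, 0.0743, 0.0543, 0.0844 and 0.0667), without the 4 arrays of raised Gapdh difference (0.0675), and when only the compared groups were fitted (0.0843). For Birc2 and Nfkbie the differences were -0.44 ± 0.27 (SE, adjusted p = 0.391) and -0.27 ± 0.19 (SE, adjusted p = 0.458). For Birc2 it became -0.67 and was called (adjusted p = 0.0175) without the 3 vector arrays that stood apart. Birc3 and Nfkbie averaged 5.26 and 5.02 in shRNA cells, beside 5.58 for the leukocyte marker Cd3e. Whether a signal that low can hide part of a change with time was not tested.

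After irradiation, with 10 and 100 cGy averaged, the same 3 genes were higher at 24 than at 6 h in vector cells, and Relb with them. The log2 differences were 0.82 ± 0.14 (SE, adjusted p = 1.53e-05) for Birc2, 0.76 ± 0.09 (SE, adjusted p = 8.41e-09) for Birc3, 0.67 ± 0.10 (SE, adjusted p = 1.49e-06) for Nfkbie and 0.45 ± 0.12 (SE, adjusted p = 0.00291) for Relb, 4 of 8 members beside 39.0% of genes (22.4% higher). For Birc2, Birc3 and Nfkbie no array at 24 h overlapped those at 6 h, which held for 30.4% of genes. In shRNA cells Nfkbia (0.39 ± 0.11 SE, adjusted p = 0.00344) and Birc2 (0.35 ± 0.14 SE, adjusted p = 0.0395) were higher, 2 of 8 beside 39.2% (20.7% higher). Nfkb2 had -0.09 ± 0.11 (SE, adjusted p = 0.567) there and was called lower with the mean of its probe sets (-0.32, adjusted p = 0.00141) and with 1429128_x_at alone (-0.56, adjusted p = 2.25e-06). Relb had -0.25 ± 0.12 (SE, adjusted p = 0.0776) and was called with centred arrays (-0.28, adjusted p = 0.0359) and with only the compared groups (0.0378). Birc3 (0.17) was called with the mean of its probe sets (0.14, adjusted p = 0.0393). Nfkbia lost its call with 1420089_at (0.23, adjusted p = 0.428). The Relb call in vector cells was lost without the 10 cGy replicate 1 at 24 h (0.31, adjusted p = 0.0743). The Birc2 call in shRNA cells was lost without any 1 of 8 arrays: 100 cGy at 6 h replicate 2 or 3, 100 cGy at 24 h replicate 1, 2 or 3, 10 cGy at 6 h replicate 2 or 3, or 10 cGy at 24 h replicate 1 (adjusted p from 0.0555 to 0.1), and with no filter on low values (0.0507).

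The changes from 6 to 24 h differed between the lines for 3 of 8 members, beside 10.1% of tested genes. Relb was higher in vector and, short of the test, lower in shRNA cells (-0.25), a difference between the lines' changes of -0.71 ± 0.17 (SE, adjusted p = 0.00388). Birc3 gave -0.59 ± 0.12 (SE, adjusted p = 0.000967) and Nfkbie -0.51 ± 0.14 (SE, adjusted p = 0.0136), and the latter lost its call without the vector 10 cGy replicate 1 at 24 h (-0.46, adjusted p = 0.0531). The low signal of Birc3 and Nfkbie in shRNA cells, given above, applies here too. Birc2 gave -0.47 ± 0.20 (SE, adjusted p = 0.136) and Nfkbia 0.40 ± 0.15 (SE, adjusted p = 0.0972), which is of the opposite sign. With a fit of the compared groups alone both were called (adjusted p = 0.00597 and 0.0112), as was Nfkbia without the raised-Gapdh arrays (0.0482). From 2 to 6 h fewer members passed: in vector cells Relb was lower (-0.37 ± 0.12 SE, adjusted p = 0.022, 1 of 8 beside 16.7% of genes, 7.82% lower), and in shRNA cells none of 8 passed limma's test, beside 21.5% of genes, with 1 (Birc2, 0.29) at an unadjusted p under 0.05. Nfkb2 (0.09) was called with 1429128_x_at (0.34, adjusted p = 0.00395). The Relb call was lost without 100 cGy at 2 h replicate 1 or 2, 100 cGy at 6 h replicate 2, 10 cGy at 2 h replicate 1 or 10 cGy at 6 h replicate 2 or 3 (adjusted p from 0.0506 to 0.0868). Without the 3 vector arrays that stood apart, Nfkbia (0.45, adjusted p = 0.00013), Birc2 (0.52, adjusted p = 8.80e-05) and Tnfaip3 (-0.31, adjusted p = 0.0248) were also called in vector cells, where with all arrays they had 0.28, 0.23 and -0.23. Leaving out 1 array also gave calls there: Nfkbia without 100 cGy at 2 h replicate 3 (0.00971), 10 cGy at 2 h replicate 3 (0.0169) or 10 cGy at 6 h replicate 1 (0.042), and Birc2 (0.0196) and Tnfaip3 (0.0366) without 10 cGy at 2 h replicate 3. The difference between the lines in the 2 to 6 h change was called for none of 8 members by limma, beside 2.85% of genes, with none at an unadjusted p under 0.05; for Nfkbia it was -0.29 ± 0.15 (SE, adjusted p = 0.36), and -0.46 (adjusted p = 0.0121) without those 3 arrays.

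**Figure D4:**
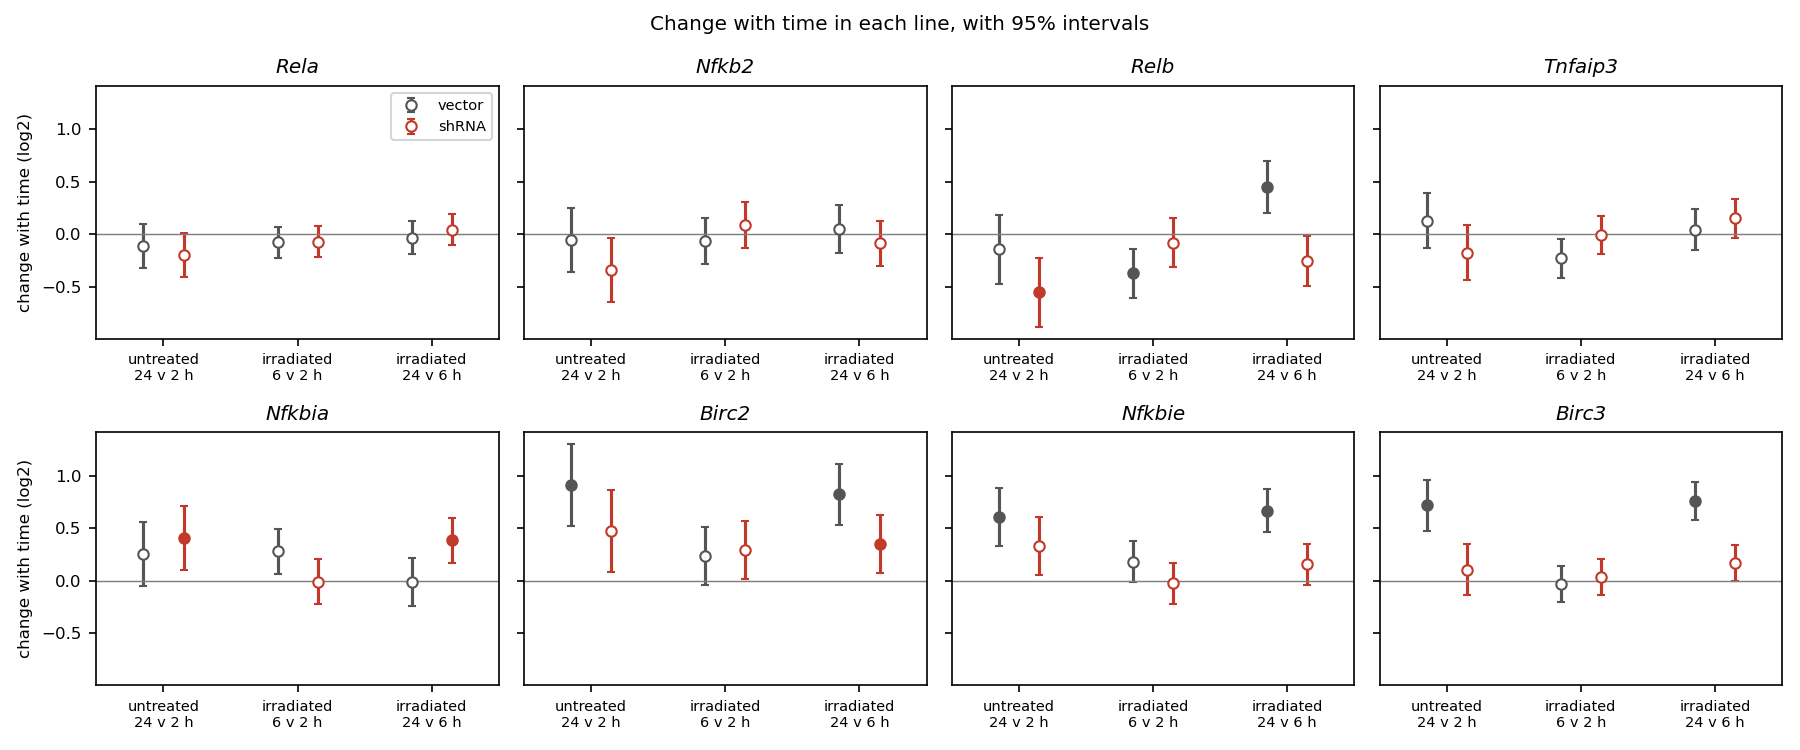
Change with time (log2) of the 8 tested members in vector (grey) and shRNA (red) cells, with 95% intervals, for untreated cells at 24 against 2 h and irradiated cells at 6 against 2 h and 24 against 6 h; filled points passed the test. Birc2, Nfkbie and Birc3 rose to 24 h in vector cells (0.60 to 0.91 untreated), and Birc3 in untreated shRNA cells is at 0.10.

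X-rays at these doses changed no member past the test. Of 64 comparisons of a member with its untreated group at 2 or 24 h, limma called 0 and 1 had an unadjusted p under 0.05: Birc3 at 100 cGy and 2 h in shRNA cells, -0.29 ± 0.12 (SE, adjusted p = 0.909), where arrays read 4.76, 5.09 and 5.22 beside 5.39, 5.26 and 5.27 untreated. All 3 irradiated arrays lay below the untreated ones, and 6.61% of genes had no overlap in this comparison. The lowest adjusted p over the 64 was 0.459. Across all genes 0.0432% of the same comparisons were called, 30 of 69400. In vector cells the called shares were 0% and 0.0461% after 10 and 100 cGy at 2 h and 0.0115% and 0.0922% at 24 h. In shRNA cells they were 0.0115% and 0.0231% at 2 h and 0% and 0.161% at 24 h. The 10 and 100 cGy groups of a time share their untreated arrays, so their values are not independent. The 95% intervals of the 64 differences lay between -0.65 and 0.54.

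Between 100 and 10 cGy, limma called 0 of 48 member comparisons at 2, 6 and 24 h, with 1 at an unadjusted p under 0.05 (Birc3 at 2 h in shRNA cells, -0.25 ± 0.12 SE, adjusted p = 0.599), beside 0.0519% of gene comparisons (0.0346%, 0.0922% and 0% at 2, 6 and 24 h in vector cells, and 0.0231%, 0% and 0.161% in shRNA cells). The intervals lay between -0.63 and 0.59. Of 32 tests of whether the lines differed in their response to dose, limma called 0 and none had an unadjusted p under 0.05, with a lowest adjusted p of 0.438, beside 0.0288% of gene comparisons (0.0115% for either dose at 2 h, and 0.0115% and 0.0807% for 10 and 100 cGy at 24 h). At 6 h there is no untreated group, so a response at that time was not analysed here.

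**Figure D5:**
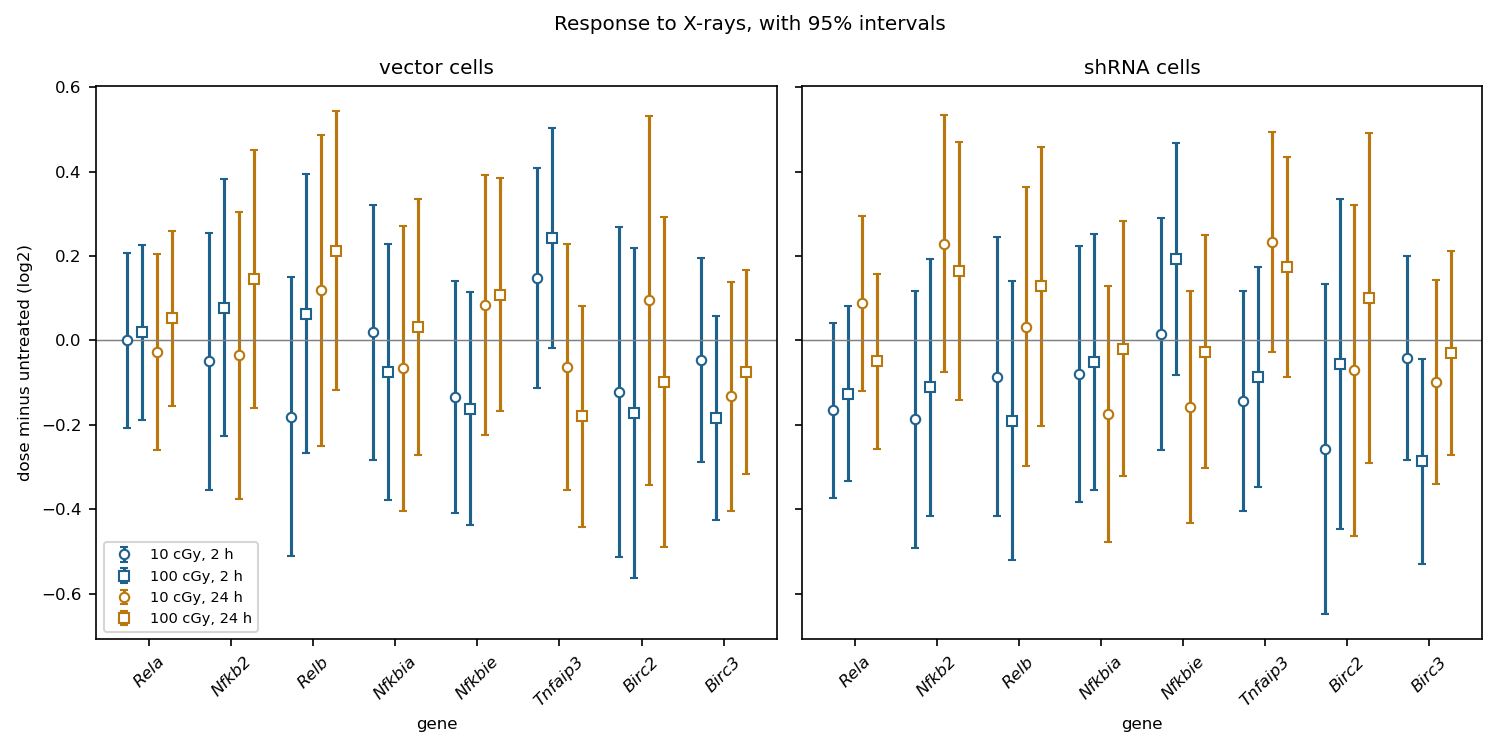
Difference from untreated cells (log2) of the 8 tested members after 10 cGy (circles) and 100 cGy (squares), at 2 h (blue) and 24 h (orange), in vector (left) and shRNA cells (right), with 95% intervals. No point passed the test, and the largest difference is -0.29, of Birc3 at 100 cGy and 2 h in shRNA cells.

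The other genes of the pathway were taken by role from lists of 80 genes, chosen with earlier results of these data known, of which 63 were tested. Over the 8 conditions 21 were higher and 29 lower in shRNA cells, with a median difference of -0.02, beside 34.9% of all tested genes higher and 33.9% lower. None of 2 tested ligands passed limma's test. Among 17 receptors and adaptors 7 were higher and 5 lower, including Traf2, an adaptor that brings the cIAP proteins to the TNF receptor (-0.88 ± 0.05 SE, adjusted p = 4.25e-19), Traf5, a relative of it (-0.69 ± 0.05 SE, adjusted p = 2.78e-16), and Myd88, the adaptor of Toll-like and IL-1 receptors (0.41 ± 0.03 SE, adjusted p = 2.88e-17). Of 9 kinases 4 were higher and 4 lower: Ikbkb, the IkB kinase of the classical pathway, had 0.47 ± 0.04 (SE, adjusted p = 3.66e-12) and Map3k14, the NIK kinase of the alternative pathway that the cIAP proteins restrain, had -0.40 ± 0.04 (SE, adjusted p = 9.05e-11). Of 8 further inhibitors and IkB relatives 3 were higher and 4 lower, with the largest difference in Bcl3, a nuclear IkB relative (-1.94 ± 0.07 SE, adjusted p = 1.49e-23). Of the 3 genes that link DNA damage to NF-kB, Parp1 (-0.45 ± 0.04 SE, adjusted p = 3.16e-12) and Atm (-0.15 ± 0.04 SE, adjusted p = 0.000603) were lower.

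Of the 24 tested targets of NF-kB outside the set, 7 were higher and 14 lower in shRNA cells, with a median difference of -0.35. This list was chosen with earlier results of these data known. Its counts beside the shares of all genes are therefore a description. Mmp3 and Mmp9, enzymes that cut the extracellular matrix, had -4.42 ± 0.06 (SE, adjusted p = 8.17e-39) and -2.32 ± 0.06 (SE, adjusted p = 2.69e-29), and Lcn2, an iron-binding secreted protein, had -1.03 ± 0.07 (SE, adjusted p = 9.59e-16). From 2 to 24 h in untreated vector cells 12 of the 24 targets were higher and 5 lower, beside 13.0% and 12.9% of all tested genes, among them Saa3, an acute-phase protein (3.01 ± 0.14 SE, adjusted p = 7.42e-19), Lcn2 (2.38 ± 0.20 SE, adjusted p = 8.74e-12) and Vcam1, an adhesion molecule (1.06 ± 0.09 SE, adjusted p = 7.92e-12); Bcl3 rose with 1.79 ± 0.21 (SE, adjusted p = 2.28e-08). In untreated shRNA cells 1 target was higher and 8 were lower, beside 10.1% and 9.14% of all tested genes, among them Ier3 (-1.68 ± 0.13 SE, adjusted p = 1.09e-12) and the cytokine Il6 (-4.05 ± 0.59 SE, adjusted p = 3.60e-06). Tested directly, the time change was lower in shRNA than in vector cells for 11 targets and higher for 2, beside 2.72% and 2.97% of all tested genes, and after irradiation, from 6 to 24 h, lower for 11 and higher for 1, beside 6.20% and 3.94%.

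The genes whose group means over the 16 groups ran closest to those of a member were, by Pearson r, Slit3 and Naalad2 for Birc3 (both 0.99), Amot and Cndp2 for Nfkbie (both 0.99), Myo1c and Dnlz for Rela (both 0.99), Derl1 and Spon2 for Nfkbia (both 0.97), Keap1 and Fam43a for Birc2 (both 0.97), Btd and Ddx39b for Relb (0.93 and 0.92), Btd and Supt16 for Nfkb2 (both 0.92) and Srebf2 for Tnfaip3 (0.75). These correlations carry no p: the points share their arrays and are dominated by the difference between the lines. With each line's mean taken off, the closest genes were Myl12b for Birc3 (0.97), Tjp1 for Nfkbie (0.97), Osr1 for Birc2 (0.97), Arfgap3 for Nfkbia (0.95), Zbtb21 for Relb (0.89), Adpgk for Rela (0.85), Srebf2 for Tnfaip3 (0.81) and Btd for Nfkb2 (0.77).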

How the data were processed

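Total RNA from 47 samples was hybridised to Affymetrix mouse arrays after one-cycle biotin labelling, per the labels' protocols. The authors deposited log2 signals per probe set, made with RMA per the submitters' processing notes (version not given in the sources used here). RMA gives all arrays the same overall distribution, which hides any shift common to most genes, and the arrays' number limits the precision. No 2 arrays held identical values. Of 22690 probe sets 20380 had 1 gene symbol, 691 several, 1555 none and 64 were controls; the highest-mean probe set with 1 symbol stood for a gene. A model with the 16 groups was fitted to all 8675 genes left by the filter, with limma 3.58.1 in R 4.3.3 (31 residual degrees of freedom), and p-values were adjusted over them by Benjamini-Hochberg; Python 3.11.15 and pandas 2.3.3 handled tables. The members and gene lists were chosen with earlier results of these data known. Named were all members, up to 4 called genes with the smallest p per pathway list and contrast, and the genes most like each member by Pearson r over group means. The fit was run on simulated data with arrays drawn independently, which cannot show how it behaves with arrays that correlate. Alternatives were the filter, the mean of all probe sets, array centring, a variance trend, a replicate block, only the compared groups and each array left out. Promoter windows are RefSeq's, GRCm38.p6.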

Additional observations from a re-analysis of the deposited data

Results flagged for a closer look

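A direct test of the difference between the lines' changes with time passed for 4 results. In untreated cells the change of Birc3 from 2 to 24 h differed by -0.61 on the log2 scale (shRNA minus vector). In irradiated cells the change from 6 to 24 h differed by -0.71 for Relb, by -0.51 for Nfkbie and by -0.59 for Birc3. Nfkbie and Birc3 had a low signal in shRNA cells, and its part in these values was not tested.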

How the results depend on the processing

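Of 63 called member comparisons (of 288), 33 kept their call under every alternative run for them and 30 lost it under at least 1; 21 uncalled comparisons gained a call. The count of members called over the 8 conditions was 7 under each single array left out; those by condition ranged from 38 to 41 (40 with all arrays), untreated 24 against 2 h from 3 to 6 (5), irradiated 6 against 2 h from 0 to 4 (1), irradiated 24 against 6 h from 5 to 6 (6), line by time from 3 to 4 (4), pathway genes over the 8 conditions from 47 to 50 (50), and the feedback minus subunit difference from -0.70 to -0.65. All dose counts stayed at 0. Other alternatives gave wider ranges. The count by condition ran from 33 with Birc3 probe set 1425223_at to 42 with the replicate block, and was 35 with Nfkbia probe set 1420089_at. Over the 8 conditions the count was 6 with 1425223_at or with Nfkb2 probe set 1429128_x_at. The feedback minus subunit difference was -0.73 with no filter and -0.57 with the mean of all probe sets. The count at 6 against 2 h was 2 with the replicate block, 4 without the 3 vector arrays that stood apart and 2 with Nfkb2 probe set 1429128_x_at; the line by time count was 2 with Birc3 probe set 1425223_at. The cause was not tested. These other probe sets, tried after seeing the data as was leaving out the 3 vector or the raised-Gapdh arrays, changed the sign of 6 values called with either probe set: Nfkb2 0.026 over the 8 conditions and 0.36 at 100 cGy and 6 h, and Birc3 0.016 at 10 cGy and 24 h, 0.069 at 100 cGy and 2 h, 0.010 at 100 cGy and 24 h and 0.092 in the irradiated 24 against 6 h difference between lines. In its new sign limma called only Nfkb2 at 100 cGy and 6 h (adjusted p = 0.0214). The Birc3 probe set, 1425223_at, averaged 3.39, below the filter's limit. Same-numbered replicates did not meet the rule for pairs (27 of 40 pairs correlated above 0.1, the lowest -0.29, and 30 of 47 arrays were closest to their own number); the replicate block gave 42 calls by condition and added Nfkbia untreated at 24 h (-0.35, adjusted p = 0.0468), Birc2 at 10 cGy and 2 h (-0.48, 0.0423) and Nfkbia at 6 against 2 h in vector cells (0.28, 0.0472). In vector cells at 2 h, 8 of 9 same-numbered pairs correlated above 0.1, with a median of 0.48. Of the 18 pairs of unlike number there, 6 also did, up to 0.52, all of them between replicates 1 and 2. The block, the variance trend and the fit of only the compared groups could not be run for the feedback minus subunit value.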

Other observations

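Among the members, group means with each line's mean taken off ran together most for Nfkbie with Birc2 (Pearson r = 0.93 over 16 groups), Nfkbie with Birc3 (0.90) and Birc2 with Birc3 (0.88), and ran against each other most for Nfkbia with Relb (-0.63). Within groups, over the 47 arrays' deviations from their group mean, Nfkb2 and Relb had r = 0.63, Nfkbia and Birc2 0.58, Nfkbia and Nfkbie 0.52, and Nfkbia and Relb -0.62. There the pairs that ran together most by group means had low values: 0.27 for Nfkbie with Birc2, 0.27 for Nfkbie with Birc3 and 0.01 for Birc2 with Birc3. The points share arrays and scaling, so these values are a description.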
